A study of Rattus norvegicus with 24 samples.

Results

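The effect of silica on RNA of whole rat lung was measured against saline over both sampling days. All 24 of the 24 libraries of the series entered the comparison, 12 of silica lungs and 12 of saline lungs, and the day was an additive term, so that the silica coefficient is the change averaged over the days. The rats were male Wistar animals of 5 to 6 weeks kept free of specific pathogens. The silica animals received particles at 200 mg/mL by instillation into the trachea and the saline animals received normal saline by the same route. Lungs were taken at day 14 or day 28, with 6 biological replicates in each of the 4 groups, named here silica day 14, silica day 28, saline day 14 and saline day 28. Wistar is an outbred stock, and no group carried a transgene or a deletion. Because whole lung was sequenced, fewer cells of a type and less RNA per cell cannot be told apart in any result below.

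Inhaled silica particles are taken up by alveolar macrophages, which cannot digest them, and the inflammation that follows leads to nodules of collagen. The conducting airways are lined by multiciliated cells, whose motile cilia sweep mucus and particles out of the lung, and by secretory cells such as the club cell. A motile cilium beats through dynein arms, large motors built on axonemal heavy chains, and RFX and FOXJ1 transcription factors drive the genes for its parts. Fatty acid oxidation in mitochondria and peroxisomes is under the control of PPAR nuclear receptors, while fatty acid synthesis and desaturation are under the control of SREBP factors.

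Levels are given as FPKM, the fragment counts scaled to gene length and library depth that the authors deposited. Changes are silica minus saline on the log2(FPKM + 1) scale, each with its standard error (SE), so that the changes of genes with low FPKM are understated. Whole reads recovered from the steps of the FPKM values came to between 55.1 M and 84.6 M per library. Markers of the labelled tissue were high: Sftpc, the surfactant protein of alveolar type 2 cells, had a median between 10673 and 13446 FPKM in the 4 groups. The share of reads on mitochondrially encoded genes was uneven in the controls. It ran from 2.68% to 8.58% in saline day 28 with a median of 4.79%, against medians of 2.21% in saline day 14, 2.12% in silica day 14 and 2.47% in silica day 28.

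A gene was called when its silica coefficient had an adjusted p under 0.05 (limma-trend, Benjamini-Hochberg over 20856 genes). Of the 20856 genes tested, 1134 were called, which is 5.44% of them: 546 were higher in silica lungs (2.62%) and 588 were lower (2.82%). With the mitochondrial share as a covariate the calls numbered 575, and without saline day 28 replicates 1, 2 and 6, the controls with the highest share, 607. The higher genes were then 62.8% and 67.7% of the calls, against 48.1% with all libraries and no covariate. Changes of at least 1 on the log2 scale were seen in 91 of the higher and 21 of the lower genes. The filter on low values asked for 0.5 FPKM or more in 6 or more libraries. The 415 genes that met it in exactly 6 libraries had a median mean level of 0.376 FPKM and included 7 calls, while the 426 genes that met it in exactly 5 libraries had a median of 0.332 FPKM and were not tested.

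Genes that moved alike at both days were taken to be the called genes whose silica effects at day 14 and day 28 had the same sign, with the smaller at least 0.5 of the larger. There were 680 of them, 3.26% of the genes tested and 60.0% of the genes called: 328 higher (1.57%) and 352 lower (1.69%). The direction at both days is in part fixed by the call itself, since each day is part of the coefficient. Only 2 called genes had opposite signs at the 2 days. The other 452 called genes of the same sign were uneven: 140 of 216 higher genes had the larger rise at day 14, and 197 of 236 lower genes had the larger fall at day 28. Across all genes tested the effects of the days had little relation, with Pearson's r of 0.042 across genes, which are not independent replicates and share each day's libraries. The fit of the 4 group means, whose error is shared over all 24 libraries, gave 911 calls at day 14 (4.37% of genes tested) and 2872 at day 28 (13.8%). Of the 222 genes called at both days, 179 had the same direction, which is 19.6% of the first list and 6.23% of the second. The other 43 had opposite directions: 19 were higher at day 14 and lower at day 28, and 24 the reverse. Fitted on the libraries of 1 day alone, day 14 gave 1038 calls and day 28 gave 580. The day 28 count of 2872 was 60 without the 3 saline day 28 libraries of high mitochondrial share and 24 with the covariate. It was 2147 without saline day 28 replicate 6 alone, and 1409 and 1421 without silica day 28 replicates 3 and 4. Why the count moved was not tested. The difference between the days, called for 2071 genes (9.93%), was called for 8 without the 3 libraries and for 2 with the covariate. The adjusted p values of differences given below therefore hold for the fit with all libraries.

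**Figure D1:**
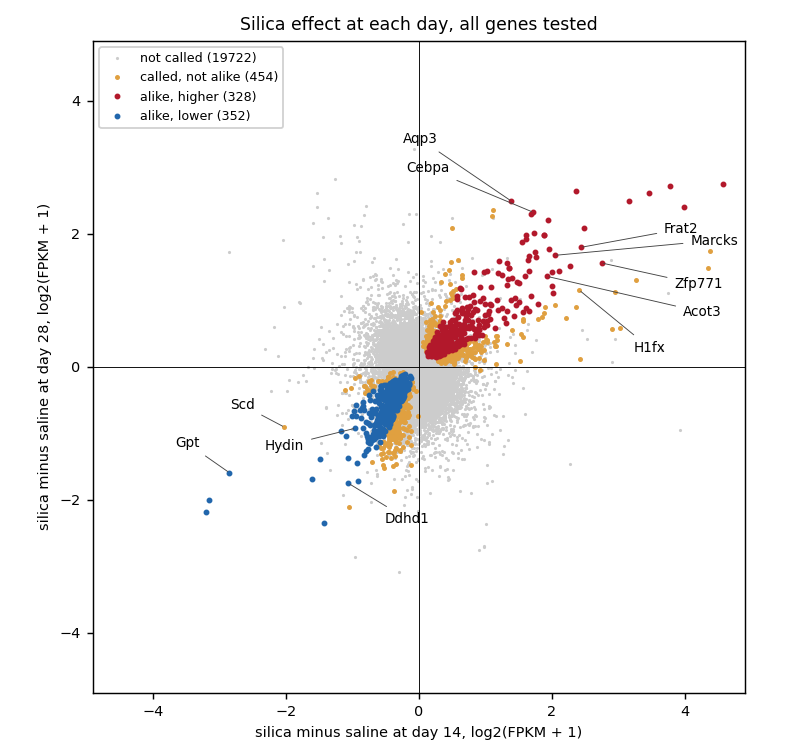
Silica minus saline at day 14 (x axis) and at day 28 (y axis), both on the log2(FPKM + 1) scale, for the 20856 genes tested, with 1 point per gene. The 328 genes higher alike (red) and the 352 lower alike (blue) lie along the diagonal; the orange genes were called but changed unequally, and the grey genes were not called.

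The higher and lower genes differed in form. Of the 328 genes higher alike, 61 had every silica library above every saline library of the same day at both days, a pattern that 0.321% of all genes tested showed. Of the 352 lower alike, 5 had every silica library below every saline library at both days, against 0.0336% of all genes. At a single day silica lay above every saline library for 155 of the 328 at day 14 and 88 at day 28 (2.8% and 1.71% of all genes), and below for 62 and 21 of the 352 lower genes (2.2% and 1.21% of all genes). The genes were chosen by the same values that set them apart, so an excess over all genes is in part fixed in advance. Of the higher genes 140 were called at both days separately, and of the lower genes 19. The median gene length was 1494.5 bases in the higher genes and 3326.5 bases in the lower genes, against 2008 bases in all genes tested. Calls differed by length over the whole table. Among genes over 4500 bases 5.26% were called lower and 0.563% higher, and among genes of 600 to 1000 bases 1.13% were called lower and 3.99% higher. The shares were 1.09% and 2.57% in genes of up to 600 bases, so higher calls did not rise steadily as length fell. Median changes at day 14 and day 28 were -0.179 and 0.072 over 4500 bases, and 0.059 and -0.114 up to 600 bases. With the length trend of each library removed, 614 of the 680 genes were still called and all 680 kept their sign.

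Zfp771, a zinc finger protein, had the largest rise with an assigned symbol among genes that moved alike. It ran from 2.08 to 4.03 FPKM in saline day 14 with a median of 2.71, and from 20.6 to 34.4 in silica day 14 with a median of 22.4. At day 28 it ran from 3.36 to 16.3 in saline with a median of 5.47, and from 19.5 to 26.1 in silica with a median of 21.7. Every silica library was above every saline library of its day, while the silica levels of the days were close and the saline level differed. The rise was 2.15 (SE 0.20, adjusted p 2.09e-07), and it was smaller at day 28 than at day 14, 1.56 against 2.75 (adjusted p of the difference 0.0294).

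Nr2f6, an orphan nuclear receptor that represses cytokine genes in T cells of the mouse, had medians of 5.55 FPKM in saline day 14 and 9.75 in saline day 28 (range over both days 4.44 to 12.2). In silica the medians were 20.7 and 20.8, with a range of 18.4 to 23.3, so the groups were widely apart at both days. Its change was 1.37 (SE 0.11, adjusted p 8.82e-09). Scx, or scleraxis, a transcription factor of tendon cells that also acts on collagen genes, had medians of 3.17 and 3.69 FPKM in saline at day 14 and day 28 against 9.67 and 7.84 in silica. The lowest silica libraries of Scx, 7.78 and 5.09 FPKM, lay above the highest saline libraries, 3.86 and 4.35, and the change was 1.19 (SE 0.12, adjusted p 5.41e-07).

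Cebpa, the C/EBP factor of alveolar type 2 cells and macrophages, was also above every saline library in every silica library, but its controls were split. Silica libraries ran from 38.7 to 59.7 FPKM at day 14 and from 31.4 to 56.2 at day 28. Saline libraries held 2 levels: 5 of 12 had between 0.993 and 5.90 FPKM and the other 7 had between 23.7 and 30.8. Saline day 14 replicates 3 and 5 and saline day 28 replicates 2, 3 and 4 were the low ones. The change was 2.02 (SE 0.45, adjusted p 0.0081), with the split counted in its error. In the list of C/EBP and KLF factors, 3 of 14 rose and 1 fell, against 2.62% and 2.82% of all genes. Of these, Cebpb (1.74, SE 0.45, adjusted p 0.0232) and Klf2, an endothelial factor (1.01, SE 0.18, adjusted p 0.00108), had day 14 rises of 2.90 and 1.57 against day 28 changes of 0.57 and 0.44. The call of Cebpb was lost with the mitochondrial share as a covariate (1.90) and in limma-voom on the recovered reads (1.60).

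A further 4 genes with every silica library above every saline library of its day were Vmac, Ccdc71l, Tmem158 and Sox12. Vmac, a vimentin-associated protein, had the smallest p of the genes with an assigned symbol, with saline medians of 1.86 and 2.62 FPKM at day 14 and day 28 and silica medians of 7.72 at both, a change of 1.38 (SE 0.10, adjusted p 5.47e-09). Its saline maximum was 3.84 and its silica minimum 6.53. Ccdc71l, which takes part in fat cell formation in the mouse, had saline medians of 1.74 and 1.61 and silica medians of 5.92 and 5.12 FPKM (change 1.48, SE 0.13, adjusted p 9.04e-08). Tmem158, a membrane protein induced by Ras signalling, had saline medians of 2.57 and 1.93 and silica medians of 9.76 and 8.53 FPKM (change 1.72, SE 0.22, adjusted p 1.5e-05). Neither Ccdc71l nor Tmem158 overlapped between silica and saline at either day, and for both the silica medians were at least 3 times the saline medians. Sox12, a SOX-family transcription factor, rose from medians of 2.16 and 1.25 FPKM to 6.52 and 5.76, again without overlap (change 1.30, SE 0.15, adjusted p 4.2e-06).

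**Figure D2:**
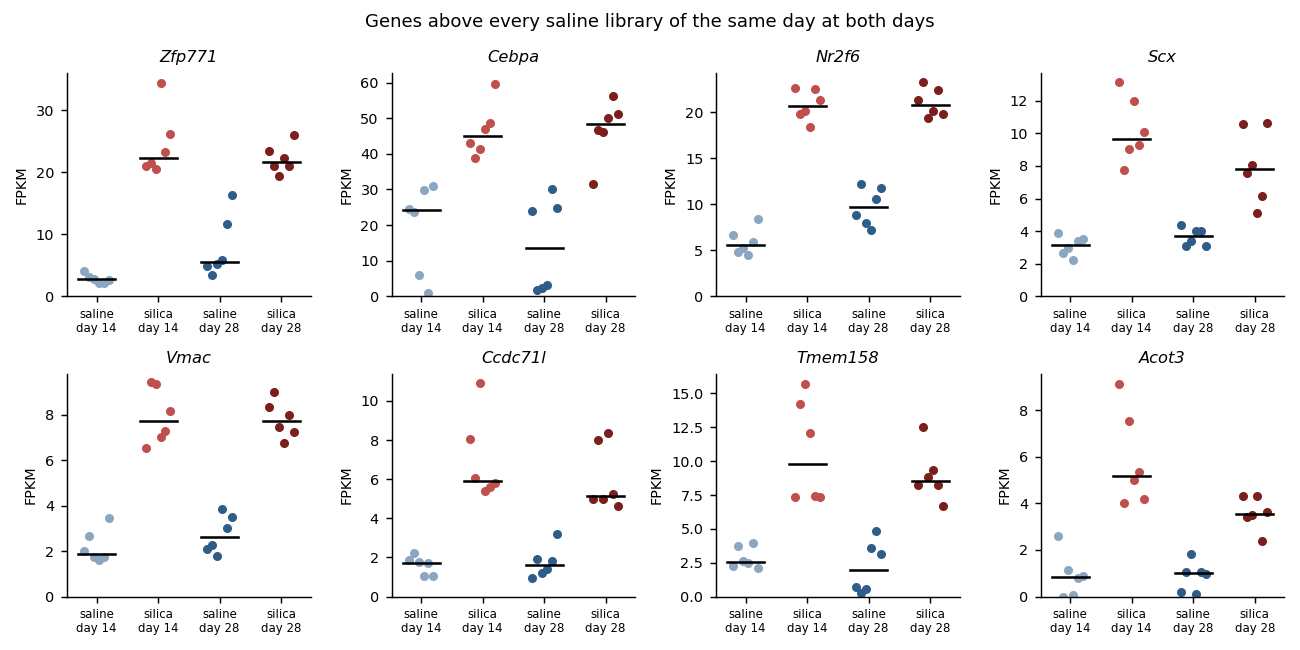
FPKM (y axis, from 0) of 8 genes in the 4 groups (x axis), with 1 point per library and a bar at the median of 6 libraries. In all 8 genes each silica library lies above each saline library of the same day, and the saline points of Cebpa fall into 2 levels.

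Further rises were large but not clear of every control. Marcks, a substrate of protein kinase C that links membrane and actin, was between 38.3 and 64.0 FPKM in all 12 silica libraries. In saline it was between 6.26 and 11.3 in 9 libraries and at 45.0, 50.1 and 38.4 in saline day 14 replicate 5 and saline day 28 replicates 2 and 6, inside the silica range. Its change was 1.86 (SE 0.31, adjusted p 0.000554). Frat2, a protein of Wnt signalling that binds the kinase GSK3, was under 1 FPKM in 10 saline libraries and at 3.08 and 3.82 in the other 2, and ran from 3.27 to 8.70 in silica (change 2.11, SE 0.23, adjusted p 1.53e-06). Its groups overlapped at day 28, through saline replicate 5, and were apart at day 14. Aqp3, a water and glycerol channel of airway basal cells, had medians of 0.711 and 0.715 FPKM in saline and 3.92 and 8.02 in silica, with single silica libraries of 15.2 at day 14 and 45.5 at day 28. It overlapped at day 14 and was apart at day 28. The change of Aqp3 was 1.94 (SE 0.38, adjusted p 0.00275). Taf10, a subunit of the TFIID complex, rose by 1.78 (SE 0.22, adjusted p 1.04e-05), and 2 of 31 genes of the general transcription machinery rose and 0 fell, against 2.62% and 2.82% of all genes. The second was Polr2j, a subunit of RNA polymerase II (0.31, SE 0.09, adjusted p 0.0347). Its call was lost with the mitochondrial covariate (0.24, adjusted p 0.200), without the 3 saline day 28 libraries of high mitochondrial share (0.26) and on leaving out 9 single libraries in turn (0.29 to 0.31): saline day 14 replicates 2, 4 and 5, saline day 28 replicate 1, silica day 14 replicate 1 and silica day 28 replicates 1, 4, 5 and 6.

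Among Wnt receptors Fzd2 rose by 0.77 (SE 0.13, adjusted p 0.00101) and Fzd8 by 0.74 (SE 0.16, adjusted p 0.00839). With Frat2 they made 3 of 26 genes of the Wnt list, of which 0 fell. Of all genes 2.62% rose and 2.82% fell, shares that stand beside this count and those of the histone and HOX genes below. The call of Fzd8 was lost with the mitochondrial covariate (0.46) and without 3 saline day 28 libraries of high mitochondrial share (0.58). Histone genes, most of them lacking the poly-A tail that the library selected for, had 5 of 17 members higher and 0 lower, with a median change of 0.17. Hist2h2aa3 (1.55, SE 0.25) and Hist2h2aa2 (1.37, SE 0.22) are near-identical copies whose reads the authors' counting could share, so their values are uncertain as 2 genes. H1fx, a linker histone, rose by 1.78 (SE 0.16, adjusted p 5.48e-08), more at day 14 (2.41) than at day 28 (1.15). Of 11 HOX genes tested, 3 were higher and 0 lower, led by Hoxa6 (0.62, SE 0.15, adjusted p 0.0185) and Hoxa4 (0.41, SE 0.08, adjusted p 0.00148), which pattern the body axis in the embryo. The call of the third, Hoxb4 (0.52, SE 0.15, adjusted p 0.040), was lost with the mitochondrial covariate (0.56) and on leaving out 14 of 24 single libraries. Day 14 libraries alone gave 4 HOX genes higher and 0 lower, and day 28 libraries alone 0 higher and 1 lower. Igfbp7, a matrix protein that binds insulin-like growth factors, went from 472 FPKM in saline to 784 in silica as means of 12 libraries (change 0.71, SE 0.09, adjusted p 2.58e-05).

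Of 19 clock genes 4 were higher and 2 lower, against 2.62% and 2.82% of all genes, and 2 of these 6 moved alike. Nr1d1, the repressor REV-ERB alpha, had medians of 9.23 and 12.0 FPKM in saline at day 14 and day 28 against 41.2 and 18.1 in silica. All silica libraries were above saline at day 14, and they overlapped at day 28. The change was 1.47 (SE 0.22, adjusted p 0.00011), with a difference between the days of -1.47 (adjusted p 0.0121). Nr1d2 rose alike (1.24, SE 0.20; 1.51 at day 14 and 0.98 at day 28), and so did Bhlhe41, a repressor of the clock (0.60, SE 0.13, adjusted p 0.00906; 0.49 and 0.71). The call of Bhlhe41 was lost with the mitochondrial covariate (0.39) and without the 3 saline day 28 libraries of high mitochondrial share (0.46). Dbp rose at day 14 (2.42) with little at day 28 (0.11), while Cry1, a repressor of the core loop, fell (-0.55, SE 0.13, adjusted p 0.0132). The hour at which lungs were taken is not given in the sources used here, so hour and treatment cannot be told apart for these genes. On leaving out 1 library the clock list kept 4 higher. It had 1 lower without any of saline day 14 replicates 2 to 6, saline day 28 replicate 2 or 6, silica day 14 replicate 3 or silica day 28 replicate 5, and 4 lower without saline day 28 replicate 5.

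Of the genes higher alike 106 of 328, and of the lower 128 of 352, had no assigned symbol, and 3 of these were picked after their values had been seen. A gene without a name in the files, with an identifier that begins NewGene, had the smallest p of the table: it ran from 0 to 0.260 FPKM in the 12 saline libraries and from 2.80 to 4.70 in the 12 silica libraries (change 2.07, SE 0.07, adjusted p 7.59e-16). The groups did not overlap. AABR07063462.1, named in the files after a clone, had medians of 199 and 422 FPKM in saline at day 14 and day 28 and 3398 and 2741 in silica (change 3.03, SE 0.43, adjusted p 7.39e-05). Its silica day 14 replicate 4, at 229 FPKM, lay among the saline libraries, and every other silica library was above its day's saline libraries. The unnamed gene with the smallest p among the falls ran from 0.852 to 2.69 FPKM in saline and was listed at 0 in all 12 silica libraries, so that no fold is given (adjusted p 9.33e-11).

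Many genes of the motile cilium fell. In the 7 families taken by name (dynein heavy chains, other dynein chains, dynein arm assembly factors, radial spoke heads, cilia and flagella associated proteins, intraflagellar transport and tektins), 32 of 76 tested genes fell and 0 rose, against 2.82% and 2.62% of all genes. Of the 352 genes lower alike, 17 belonged to these families. Of the 76, 60 were negative at both days, against 24.2% of all genes tested, and the median change was -0.50 against -0.01 over all genes. These families were chosen after values had been seen. The promoters of 3 of these genes and of Hydin, a gene of the ciliated cell list outside the 7 families, are given here, as the 250 bases upstream of the start in RefSeq (build GRCr8, 5′ to 3′ on the strand of the gene), because they belong to the same cell type and moved together. Capitals mark GTTGCC, the core of the site bound by RFX factors, and the X-box, a longer form of GTTGC and GGCAAC with 3 letters between, which contains it on the opposite strand; both strands were searched, and the longer form was added after these promoters had been read.
Hydin, chr19:55146216-55146465, plus strand: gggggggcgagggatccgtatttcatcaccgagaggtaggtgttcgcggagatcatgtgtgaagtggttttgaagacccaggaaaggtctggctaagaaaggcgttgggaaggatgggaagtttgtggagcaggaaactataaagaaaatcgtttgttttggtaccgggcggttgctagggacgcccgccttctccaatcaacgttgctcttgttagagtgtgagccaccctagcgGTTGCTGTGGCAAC
Cfap44, chr11:69789906-69790155, minus strand: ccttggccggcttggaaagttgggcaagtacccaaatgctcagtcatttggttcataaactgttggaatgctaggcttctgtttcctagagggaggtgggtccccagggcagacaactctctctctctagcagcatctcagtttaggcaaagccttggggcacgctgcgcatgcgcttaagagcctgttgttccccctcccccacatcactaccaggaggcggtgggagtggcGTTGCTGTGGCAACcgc
Dnah2, chr10:54766027-54766276, minus strand: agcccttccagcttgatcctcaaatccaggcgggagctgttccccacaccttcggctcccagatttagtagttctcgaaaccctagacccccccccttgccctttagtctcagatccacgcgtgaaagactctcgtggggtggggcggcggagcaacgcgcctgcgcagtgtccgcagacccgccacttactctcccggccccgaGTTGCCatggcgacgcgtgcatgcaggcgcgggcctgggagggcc
Dnah9, chr10:51363964-51364213, minus strand: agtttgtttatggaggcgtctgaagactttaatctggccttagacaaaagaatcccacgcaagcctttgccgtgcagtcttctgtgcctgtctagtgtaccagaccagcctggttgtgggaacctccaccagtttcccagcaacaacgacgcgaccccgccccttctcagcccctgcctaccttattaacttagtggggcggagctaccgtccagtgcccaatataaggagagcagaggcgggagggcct

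Hydin and Cfap44 held the same 14 letters, beginning 14 and 17 bases before the start. Dnah2 held GTTGCC 45 bases before its start, and Dnah9 held neither form in this window. Promoters were matched by symbol for 62 of the 76 cilium genes tested. The letters GTTGCC were in 17 of them (27.4%), in 5 of 27 promoters of the cilium genes called lower (18.5%) and in 9.90% of all 27457 promoters of the RefSeq table. The longer form was in 2 of the 62 (3.23%), in 1 of the 27 called lower (3.70%) and in 0.135% of all promoters. Cfap44 is among these matches, and the form was added after its promoter had been read. The shares of the longer form are therefore in part fixed by that choice, and no excess over all promoters can be read from them. FOXJ1 binds a forkhead site, and TGTTTAC was in 3 of the 62 (4.84%) and in 3.25% of all promoters. A match is a description of letters and not a bound site.

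Dynein heavy chains form the motors of the cilium. Of 9 tested, 8 fell, against 2.82% of all genes, and 7 of the 8 fell alike. The median change of the 9 was -0.82. Their median length was 8620 bases, and of all genes over 4500 bases 5.26% were called lower. With the length trend of each library removed, 7 of the 9 were called lower. Dnah9, an outer arm chain of the cilium tip, ran from 3.36 to 9.74 FPKM in saline day 14 with a median of 4.96 and from 1.77 to 3.29 in silica day 14 with a median of 2.78. At day 28 it ran from 4.80 to 20.2 with a median of 12.5 in saline and from 3.41 to 8.58 with a median of 4.33 in silica. All silica libraries were below saline at day 14, and the groups overlapped at day 28, where saline itself was higher than at day 14. The change was -0.91 (SE 0.18, adjusted p 0.00294). Dnah6 (-0.88, SE 0.17) and Dnah2 (-0.87, SE 0.16), inner arm chains, had changes of -0.84 and -0.68 at day 14 and of -0.92 and -1.05 at day 28. The remaining falls alike were Dnah11 (-0.85), Dnah1 (-0.82), Dnah7 (-0.79) and Dnah12 (-0.79). Dnah5, an outer arm chain, had a change of -0.36 (SE 0.11, adjusted p 0.0467), and its call was lost on leaving out 16 of the 24 libraries one at a time (-0.38 to -0.32). It was kept only without saline day 14 replicate 1 or 2, saline day 28 replicate 1, 3 or 5, or silica day 28 replicate 1, 2 or 6. Dnah8, a chain of sperm flagella, had a change of 0.18 (SE 0.29, adjusted p 0.801).

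Hydin, a giant protein of the central pair, had medians of 6.15 FPKM in saline day 14 and 2.63 in silica day 14, and of 12.3 and 5.27 at day 28. Its lowest saline library at day 14, 3.71 FPKM, was just under the highest silica library, 3.85, so the groups touched. At day 28 they overlapped. The change was -0.94 (SE 0.16, adjusted p 0.000974), with -0.96 at day 14 and -0.93 at day 28. Spag17, also of the central pair, ran from 2.43 to 6.23 FPKM in saline day 14 and from 0.909 to 2.34 in silica day 14, without overlap, and from 3.58 to 13.0 against 1.76 to 5.69 at day 28, with overlap (change -0.92, SE 0.17, adjusted p 0.00141). Cfap44, needed for cilium and sperm tail assembly, had medians of 10.5 and 22.4 FPKM in saline at day 14 and day 28 and of 6.14 and 9.50 in silica, with overlap at both days (change -0.93, SE 0.19, adjusted p 0.00358). Among genes of cilium building, intraflagellar transport had 7 of 16 members lower (Traf3ip1 -0.67, Ift140 -0.48), the cilia and flagella associated proteins 11 of 26, the radial spoke heads 2 of 6, and the dynein arm assembly factors 2 of 9 (Lrrc6 -0.69). The share of all genes called lower was 2.82%. Of 5 tektins, proteins of the axoneme wall, 0 passed the test, with a median of -0.33.

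Of 11 tested regulators of multiciliated cell formation, 6 fell and 0 rose, against 2.82% and 2.62% of all genes. Of the 11, 8 were negative at both days, against 24.2% of all genes. Myb, which acts early in the making of multiciliated cells (-0.88, SE 0.20, adjusted p 0.00828), and Ccno, needed for centriole amplification (-0.78, SE 0.19, adjusted p 0.0176), kept their calls on leaving out any 1 library and lost them with the mitochondrial covariate (-0.56, adjusted p 0.129, and -0.59, adjusted p 0.157). Rfx3, a factor of cilium genes, fell by 0.50 (SE 0.13, adjusted p 0.0263) and lost its call without saline day 14 replicate 5 or saline day 28 replicate 2 (-0.48 and -0.46), with the mitochondrial covariate (-0.43, adjusted p 0.148) and without the 3 saline day 28 libraries of high mitochondrial share (-0.41, adjusted p 0.136). The value of Foxj1 alone is not given here. Among the 13 tested markers of the ciliated cell, 9 fell, and all 13 were negative at both days, with a median of -0.69. The FPKM summed over these markers ran from 56.3 to 146 in saline day 14 (median 91.6) and from 37.4 to 88.0 in silica day 14 (median 66.0), then from 83.0 to 314 (median 184) and from 50.4 to 138 (median 87.3) at day 28. So the summed levels overlapped at both days.

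The number of the 76 cilium genes called lower, 32 in the fit with all libraries, moved with the setting. It was 10 without a day term, 17 with the replicate number as a block, 20 without the filter on low values and 7 at an adjusted p under 0.01. The libraries of day 14 alone gave 4 and those of day 28 alone 3, while limma-voom gave 29 and array weights 38. With the length trend of each library removed it was 31. Saline day 28 replicates 1, 2 and 6 had the highest mitochondrial shares of their group, and with them left out 7 of the 76 cilium genes were called, 6 of 9 dynein heavy chains, 3 of 13 ciliated cell markers and 2 of 11 multiciliated regulators. With the mitochondrial share as a covariate these counts were 3, 3, 2 and 0, and the medians were -0.33, -0.62, -0.49 and -0.30. Leaving out 1 library in turn left 7 or 8 dynein heavy chains called. The count over the 7 families ran from 18 to 46, with between 18 and 21 on leaving out saline day 14 replicate 5, saline day 28 replicate 1, 2 or 4, silica day 14 replicate 1 or 6, or silica day 28 replicate 1, 3, 4 or 5. The ciliated cell markers went from 9 to 5 called without saline day 14 replicate 5, saline day 28 replicate 2 or 4, silica day 14 replicate 1 or 6, or silica day 28 replicate 3, 4 or 5. The multiciliated regulators went from 6 to 2 or 3 without saline day 14 replicates 3 to 6, saline day 28 replicate 1, 2 or 4, silica day 14 replicate 1, 3 or 6, or silica day 28 replicate 1, 3, 4 or 5, each taken out alone. Of the genes named here, Dnah9 (-0.69), Dnah1 (-0.61), Dnah7 (-0.62), Dnah12 (-0.50), Dnah5 (-0.42), Cfap44 (-0.72), Traf3ip1 (-0.50), Ift140 (-0.30) and Lrrc6 (-0.56) lost their calls with the mitochondrial covariate, with adjusted p between 0.0512 and 0.206, while Hydin, Spag17, Dnah6, Dnah2 and Dnah11 kept theirs. Without the 3 libraries Dnah12, Dnah5, Traf3ip1, Ift140 and Lrrc6 were not called. How far sampling of airway differs between the libraries was not tested.

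**Figure D3:**
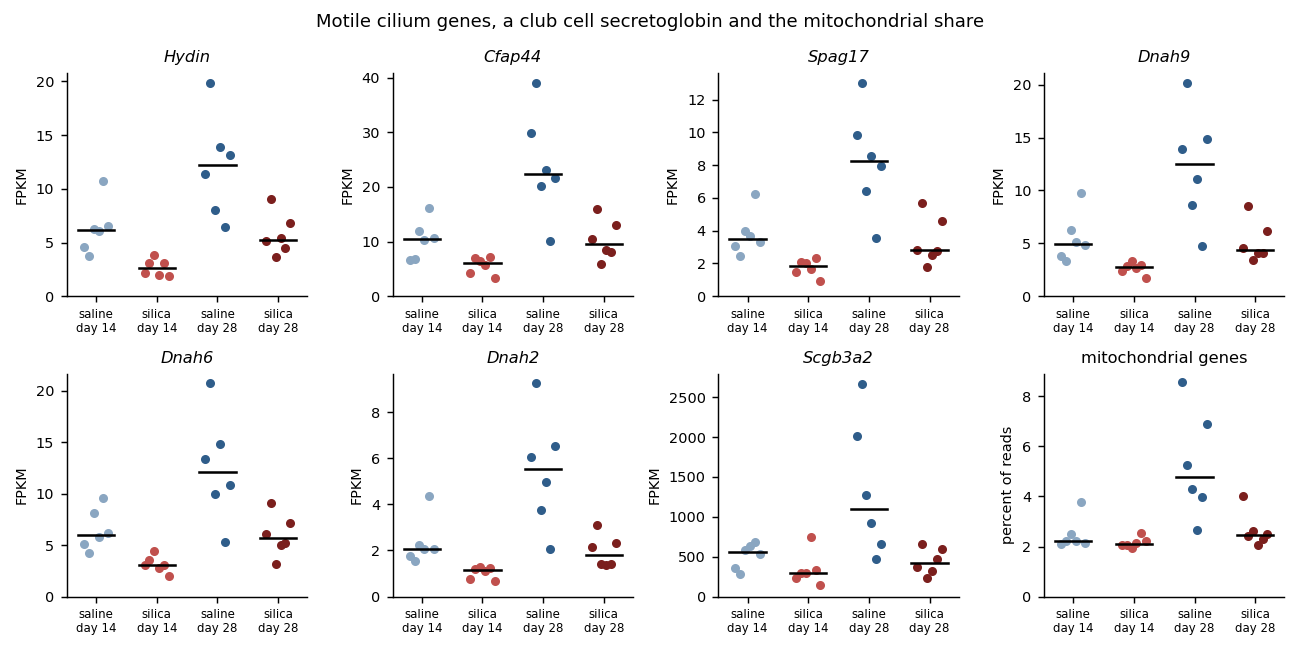
FPKM (y axis, from 0) of 6 cilium genes and Scgb3a2 and, in the last panel, the percent of recovered reads on mitochondrial genes, in the 4 groups (x axis), with 1 point per library and a bar at the median. The saline day 28 libraries hold the highest value and the widest range in all 8 panels, and the silica medians are below the saline medians of the same day in each.

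Of 9 tested markers of airway secretory cells, 1 fell, and 7 were negative at both days, with a median of -0.65. Among all genes 2.82% fell and 24.2% were negative at both days. Scgb3a2, a secretoglobin of club cells, ran from 280 to 682 FPKM in saline day 14 and from 140 to 752 in silica day 14, and from 467 to 2671 and 236 to 655 at day 28. The groups overlapped at both days, and the change was -1.07 (SE 0.28, adjusted p 0.0262). The call of Scgb3a2 was lost without saline day 28 replicate 1 or silica day 28 replicate 3 (-0.97 in each), with the mitochondrial covariate (-0.79) and without the 3 saline day 28 libraries of high mitochondrial share (-0.82). Scgb1a1, the main club cell protein, had a change of -0.65 (SE 0.28, adjusted p 0.184).

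Of 25 tested genes of fatty acid beta-oxidation, 6 rose and 0 fell, against 2.62% and 2.82% of all genes, and 4 of the 6 moved alike. The median change was 0.14, and 15 of the 25 were positive at both days. Cpt1a, which admits long-chain fatty acids to mitochondria, ran from 10.9 to 15.6 FPKM in saline day 14 with a median of 13.8, and from 18.2 to 27.0 in silica day 14 with a median of 24.3. At day 28 it ran from 9.60 to 17.6 with a median of 10.7 in saline and from 15.6 to 32.4 with a median of 20.9 in silica. The groups were apart at day 14, and at day 28 a single saline library, replicate 4, reached into the silica range. The change was 0.80 (SE 0.11, adjusted p 2.65e-05), with 0.73 at day 14 and 0.86 at day 28. The other rises were Ech1 (0.53), Acaa2, the thiolase of mitochondria (0.49), Acaa1a, a thiolase of peroxisomes (0.47), Hsd17b4 (0.44) and Eci3 (0.29). The count of 6 held under each alternative with both days and was 6 or 7 on leaving out any 1 library.

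Acyl-CoA thioesterases, which free fatty acids from coenzyme A and are induced by PPAR alpha in rodent liver, had larger rises in their 2 called members. Acot3, of peroxisomes, ran from 0 to 2.59 FPKM in saline day 14 and from 4.02 to 9.11 in silica day 14, then from 0.112 to 1.82 and from 2.36 to 4.31 at day 28, without overlap at either day (change 1.64, SE 0.20, adjusted p 8.2e-06). Acot2, of mitochondria, had medians of 5.57 and 6.93 in saline and 11.9 and 11.2 in silica, also without overlap (change 0.82, SE 0.09, adjusted p 1.83e-06). Of 8 thioesterases tested 2 rose and 0 fell, against 2.62% and 2.82% of all genes. Because family members are close in sequence, reads could be split between them. Angptl4, a PPAR target that inhibits lipoprotein lipase, ran from 1.25 to 3.28 FPKM in all saline libraries and from 4.04 to 13.8 in all silica libraries (change 1.32, SE 0.15, adjusted p 5.95e-06). In the list of PPAR targets 5 of 23 rose and 0 fell, against the same shares of all genes, with a median of 0.15. Acot3, Angptl4, Acot2 and Cpt1a were among the 5. Between 4 and 6 rose on leaving out any 1 library.

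Fatty acid synthesis went the other way in the genes that passed. Of 16 tested, 4 fell and 0 rose, against 2.82% and 2.62% of all genes, and 2 of the 4 moved alike. Day 14 libraries alone gave 6 falls and day 28 libraries alone 0. Scd, the desaturase that makes oleate, ran from 59.1 to 132 FPKM in saline day 14 with a median of 107 and from 13.8 to 30.9 in silica day 14 with a median of 25.4. At day 28 it ran from 31.8 to 135 in saline with a median of 55.4 and from 22.4 to 41.8 in silica with a median of 33.1. The groups were far apart at day 14 and overlapped at day 28, and the change was -1.47 (SE 0.25, adjusted p 0.000557). Srebf1, the regulator of these enzymes, changed by -0.43 (SE 0.09, adjusted p 0.00403), Acsl3 by -0.47 (SE 0.12) and Fads1 by -0.31 (SE 0.07). The call of Acsl3 was lost with the mitochondrial covariate (-0.42, adjusted p 0.103), and those of Acsl3 and Fads1 without a day term (adjusted p 0.0718 and 0.0664). The medians of the list were -0.47 at day 14 and 0.04 at day 28. Of 19 sterol synthesis genes 0 passed the test.

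Other falls were of single genes. Ddhd1, a phospholipase of phosphatidic acid, ran from 2.06 to 4.67 FPKM in saline day 14 and from 0.451 to 3.30 in silica day 14, where replicate 3 was the highest and the other 5 libraries ran up to 1.00. At day 28 it ran from 3.93 to 9.58 in saline and from 0.574 to 1.28 in silica, without overlap. It fell by 1.41 (SE 0.17, adjusted p 1.03e-05). Klhdc10, a substrate receptor of a ubiquitin ligase, ran from 2.77 to 20.9 FPKM over the saline libraries and from 1.57 to 5.45 over the silica libraries (change -1.04, SE 0.26, adjusted p 0.0185; not called with the mitochondrial covariate, at -1.06), with overlap at both days. Kndc1 (-0.90, SE 0.16), Dcdc5 (-0.85, SE 0.18; not called with the mitochondrial covariate, at -0.67) and Lmntd1 (-0.85, SE 0.12) followed. Lmntd1 had all silica libraries below saline at day 14. Map1b, a microtubule protein (-0.59, SE 0.10), Slc7a6, an amino acid transporter (-0.59, SE 0.11), and Uap1, an enzyme of the hexosamine pathway (-0.52, SE 0.09), had smaller errors.

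Gpt, alanine aminotransferase, had the largest fall among genes with an assigned symbol. All 12 silica libraries were between 0.315 and 0.552 FPKM. In saline 6 of 12 libraries were between 22.4 and 41.9 FPKM and the other 6 between 0.230 and 0.871. The high ones were saline day 14 replicates 1 to 4 and saline day 28 replicates 3 and 5, and the low ones overlapped with silica. The change was -2.22 (SE 0.62, adjusted p 0.0352). The call was lost on leaving out 10 single libraries in turn: saline day 14 replicates 1 to 4, saline day 28 replicate 3, silica day 14 replicates 1, 2, 3 and 6 and silica day 28 replicate 3, with changes between -2.24 and -1.94. It was also lost in limma-voom on the recovered reads (-3.29). Aurkb, a mitotic kinase, fell by 0.94 (SE 0.23, adjusted p 0.016), from medians of 16.3 and 37.3 FPKM in saline to 11.4 and 13.7 in silica with overlap at both days. Of 23 cell cycle genes 2 fell and 0 rose, against 2.82% and 2.62% of all genes, with a median of -0.11. The call of Aurkb was lost with the mitochondrial covariate (-0.56) and without the 3 saline day 28 libraries of high mitochondrial share (-0.72). The other was Prc1, a protein of the spindle midzone (-0.39, SE 0.11, adjusted p 0.037). Its call was lost with the covariate (-0.42, adjusted p 0.0800) and on leaving out 13 single libraries in turn (-0.39 to -0.35): saline day 14 replicates 1, 3, 4 and 5, saline day 28 replicates 2 and 4, silica day 14 replicates 1 to 3 and silica day 28 replicates 2 to 5.

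**Figure D4:**
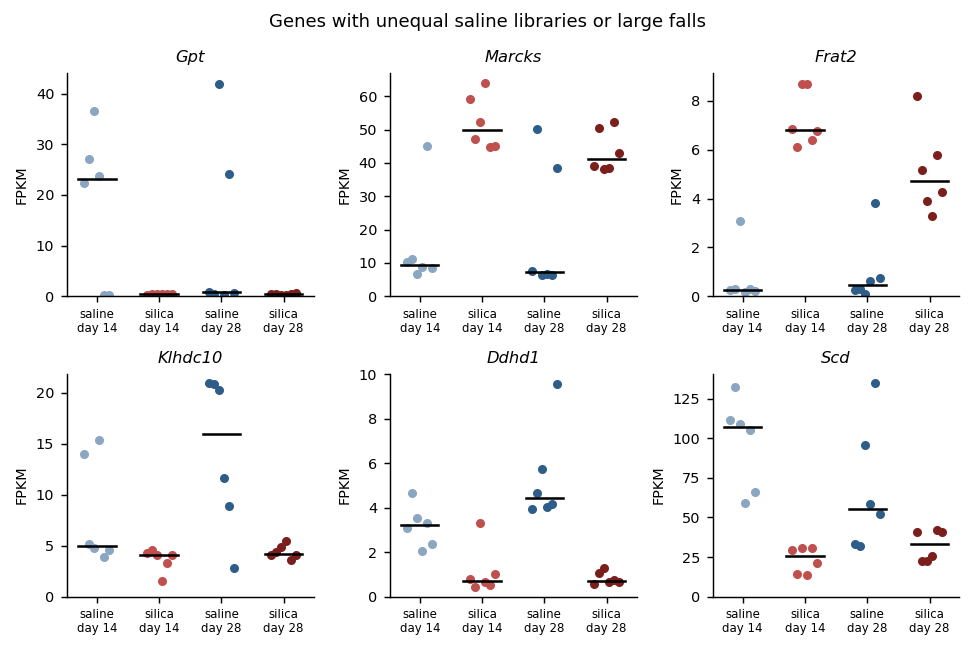
FPKM (y axis, from 0) of 6 genes in the 4 groups (x axis), with 1 point per library and a bar at the median. Gpt and Marcks each show 2 levels among saline libraries and 1 level among silica libraries, while Ddhd1 and Scd show lower silica medians at both days.

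Genes of lung injury and scarring gave no call over both days. Of 14 such genes (Col1a1, Col3a1, Fn1, Spp1, Tgfb1, Il1b, Tnf, Nlrp3, Ccl2, Mmp12, Timp1, Acta2, Sftpc and Ager) 0 passed the test in limma-trend, and 0 in limma-voom. With array weights, which give less weight to libraries that vary more, 2 were called: Tgfb1 (0.26, adjusted p 0.0264) and Ager, a marker of alveolar type 1 cells (0.37, adjusted p 0.0286). The type I collagen chain Col1a1 ran from 83.6 to 131 FPKM in saline day 14 and from 68.5 to 104 in silica day 14, and from 36.1 to 57.2 and 56.2 to 81.5 at day 28. The median was lower with silica at day 14 and higher at day 28, and the groups overlapped at both. Its changes were -0.50 at day 14 and 0.42 at day 28 (adjusted p of the difference 0.00907) and -0.04 (SE 0.13) over both days. In limma fits of day 14 libraries alone Col1a1 (adjusted p 0.0383) and Mmp12 (-0.79, adjusted p 0.0384) were called lower. In the fit of day 28 libraries alone Col3a1 was called higher (0.63, adjusted p 0.0457). The other day gave 0.34 for Mmp12 and -0.28 for Col3a1, so effects of opposite sign were averaged for these genes. Of 25 matrix genes 0 were called and 2 were positive at both days; the medians of the list were -0.37 at day 14 and 0.41 at day 28. Tgfb1, the main profibrotic growth factor, had a change of 0.27 (SE 0.09, adjusted p 0.0761) with like values at the days, 0.25 and 0.29. Of 13 proteolysis genes 3 rose and 0 fell, against 2.62% and 2.82% of all genes, and 0 were called with the mitochondrial covariate or without the 3 saline day 28 libraries of high mitochondrial share. Plau, the urokinase (0.46, SE 0.11, adjusted p 0.0186), and Timp2, an inhibitor of metalloproteinases (0.44, SE 0.11, adjusted p 0.0234), moved alike, with changes of 0.24 and 0.33 under the covariate. Mmp14, a membrane metalloproteinase (0.43, SE 0.12, adjusted p 0.0388), had 0.04 at day 14 and 0.83 at day 28. Its change was 0.19 with the covariate (adjusted p 0.388) and 0.25 without the 3 libraries (adjusted p 0.227), and its call was lost on leaving out 11 single libraries in turn (0.38 to 0.43): saline day 14 replicate 5, saline day 28 replicates 1, 2, 3 and 6, silica day 14 replicate 6 and silica day 28 replicates 2 to 6.

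Immune lists held few calls. Of 15 T and NK cell markers 13 were positive at both days, with a median of 0.19, and 0 passed the test. Of 21 interferon response genes 15 were positive at both days, with a median of 0.14, and 0 passed. The share of all genes positive at both days was 20%. Among 13 alveolar macrophage markers 0 passed (Marco 0.39, SE 0.28, and Gpnmb 0.28, SE 0.18). Their summed level had medians of 421 and 469 FPKM in saline at day 14 and day 28 and of 428 and 518 in silica, with overlap. Of 27 chemokines only Cxcl14 rose (0.67, SE 0.16, adjusted p 0.0169). Over all genes the share called higher was 2.62%, which stands beside the single calls of the lists in this paragraph. Of 10 alveolar type 1 markers Aqp5, a water channel, rose (0.42, SE 0.10, adjusted p 0.0155) and 7 were positive at both days. Of these markers 2 or 3 were called without silica day 14 replicate 4, silica day 28 replicate 1 or saline day 28 replicate 5. Of 10 type 2 markers 0 passed, with a median of 0.21. The basal and transitional epithelium list had 1 of 9 higher, Krt7 (0.48, SE 0.12, adjusted p 0.0157). The calls of Aqp5 and Krt7 were lost with the mitochondrial covariate (0.30 and 0.32). Neutrophil, mast cell, B cell, fibroblast, smooth muscle, mesothelium, heart muscle, erythroid, fat and lymphoid lists had 0 called.

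**Figure D5:**
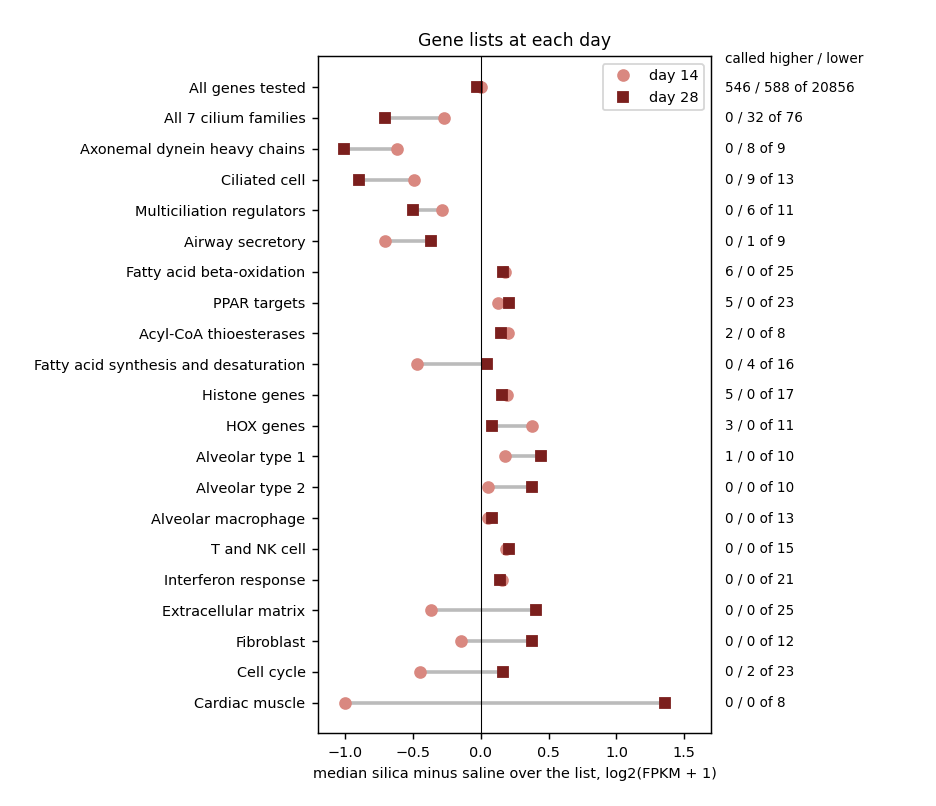
Median silica minus saline over each gene list on the log2(FPKM + 1) scale (x axis) at day 14 (circles) and day 28 (squares), with the number of members called higher and lower in the fit over both days at the right. The cilium lists lie below 0 at both days and the fatty acid oxidation lists slightly above 0, while the extracellular matrix list is at -0.37 at day 14 and 0.41 at day 28.

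The authors' deposited table gives its own comparison for each day, made from the same libraries. By the FDR of the authors' deposited table, 153 of the 328 genes higher alike and 101 of the 352 lower alike had a value under 0.05 at both days in the same direction. Over all genes tested here this held for 296, or 1.42%, in the authors' deposited table, of which 180 were higher and 116 lower.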

How the data were processed

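The series measured poly-A RNA of 24 rat lungs by sequencing. The submitters' processing notes name FastQC 0.11.9, cutadapt 4.0, HISAT2 2.1.0 and HTSeq 0.9.1 and the builds Rnor_6.0 and rn6, without order or annotation version. The authors deposited FPKM values per gene and, for each day, their own log2 fold changes and FDR, an adjusted p-value whose test is not given in the sources used here. The strand of counting is likewise not given, so overlapping and antisense genes cannot be told apart.

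From the deposited FPKM values, log2(FPKM + 1) was fitted on treatment plus day by limma-trend (limma 3.58.1, R 4.3.3). The 20856 genes that reached 0.5 FPKM in 6 or more libraries were tested, and p-values were adjusted over them by Benjamini-Hochberg. Effects within days and their difference came from a fit of the 4 group means. The pseudocount of 1 understates changes of low genes. Whole reads were recovered from the FPKM steps for 100% of 31521 genes with a value above 0, within 0.02 reads, and served for depth, the mitochondrial share and limma-voom, an alternative. Named genes were the 12 largest rises and falls that moved alike, the 6 with the smallest p in each direction, up to 3 per gene list, up to 4 per direction by the difference between days, and 14 injury genes; further members of the cilium, lipid, HOX and clock lists and 3 identifiers without symbol were named after their values had been seen. The members and lists were chosen with earlier results of these data known. The fit was tested on simulated data. Alternatives were 15 settings and leaving out each library. Promoters came from RefSeq, build GRCr8, by symbol. The labels call the 6 samples of a group biological replicates. Equal replicate numbers did not pair libraries: over 36 same-numbered pairs the deviations from group means had a mean correlation of -0.023 (from -0.296 to 0.127).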

Additional observations from a re-analysis of the deposited data

Results flagged for a closer look

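A single library stood far from the other 5 of its group in 15 of 128 checks (11.7%). The cut-off flags about 1 in 20 groups when values are normally distributed. The checks used untransformed values of chosen genes in shared libraries, so that rate does not apply and no excess over chance can be read. In all 15 the library was the highest of its group. Among saline libraries these were Frat2 at 3.078 FPKM in day 14 replicate 3 (next 0.2943) and at 3.819 in day 28 replicate 5 (next 0.7316), Marcks at 44.95 in day 14 replicate 5 (next 11.25) and Cpt1a at 17.62 in day 28 replicate 4 (next 11.06). Saline day 14 replicate 5 also stood apart for Dnah2, at 4.36 FPKM (next 2.232), and for the mitochondrial share, at 3.797% (next 2.501%). Ddhd1 was at 9.577 FPKM in saline day 28 replicate 6 (next 5.722), and AABR07063462.1 at 730.7 in saline day 28 replicate 1 (next 452.6).

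Among silica libraries Aqp3 was at 15.16 FPKM in day 14 replicate 6 (next 5.349) and at 45.54 in day 28 replicate 1 (next 16.68), which also had a mitochondrial share of 4.012% (next 2.629%). Angptl4 was at 13.77 FPKM in day 28 replicate 2 (next 7.163), Nr1d1 at 83.67 in day 14 replicate 2 (next 47.9), Ddhd1 at 3.299 in day 14 replicate 3 (next 1.002) and Scgb3a2 at 751.9 in day 14 replicate 4 (next 336.4).

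For 14 of the named genes called over both days the silica effect differed between the days (limma, adjusted p of the difference under 0.05). Named genes without a call over both days, such as Col1a1, were not counted. Some of these genes had been named for the difference between days itself, so the count is in part fixed by their choice. Over all 20856 genes tested the difference was called for 9.93%. The difference was called for only 2 genes with the mitochondrial covariate and for 8 without the 3 saline day 28 libraries of high mitochondrial share. The effect at day 28 minus that at day 14 was -1.193 for Zfp771, -0.6246 for Nr2f6, -1.474 for Nr1d1, -1.126 for Klf2 and -1.263 for H1fx, all genes that rose over both days. It was -1.117 for Jund, an AP-1 subunit, and -0.8667 for Rps2, a ribosomal protein. For Pnrc1 it was -0.9589 and for Tmem134 -0.8511, with day 28 effects of -0.04 and -0.01. Mmp14, a membrane metalloproteinase, had 0.7916. Among lower genes the difference was 0.7034 for Cemip2, 0.7689 for St8sia2, -1.053 for Mpig6b and -0.3196 for Ippk.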

How the results depend on the processing

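All 680 genes that moved alike kept their sign in every setting in which they were tested, but this was in part fixed in advance. The rule asks for the same sign at both days, so a fit of 1 day alone could not turn a sign. The settings without a day term, with the replicate block and at 0.01 left the coefficients as they were. The other settings used the same libraries. The counts moved more. The 1134 calls became 575 with the mitochondrial covariate, 607 without the 3 saline day 28 libraries of high mitochondrial share, 677 without a day term, 404 at an adjusted p under 0.01 and 580 with day 28 libraries alone, and ran from 788 to 1570 on leaving out 1 library. The higher share went from 48.1% to 62.8%, 67.7%, 64.8% and 72.8% in the first 4 of these. The 680 genes alike became 356, 385 and 291 with the covariate, without the 3 libraries and at 0.01 (484 to 829 without 1 library), and 264, 342 and 291 of the original 680 were still called. The 911 day 14 calls became 1437 with the covariate, 2171 with array weights and 363 at 0.01; they ran from 576 to 1083 without 1 library, with 576 without silica day 14 replicate 4 and 579 without saline day 14 replicate 4. The 2872 day 28 calls became 24, 60 and 341 with the covariate, without the 3 libraries and at 0.01. They ran from 993 to 4429, with 993, 1034 and 4429 without saline day 28 replicates 2, 1 and 5 and 1409 and 1421 without silica day 28 replicates 3 and 4. The 2071 differences between days became 2, 8 and 92 in the same 3 settings (1062 to 3286 without 1 library). With the replicate number as a block there were 798 calls, 538 genes alike and 1227 differences between days; the numbers do not pair animals. The cause of these moves was not tested, except that a stricter threshold lowers a count by construction.

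Sign changes were confined to genes near 0 over both days or moving at 1 day. With day 28 alone Pnrc1 (-0.045) and Tmem134 (-0.0082) turned negative, and Mmp12 (0.34), Ccl2 (0.64), Spp1 (0.33), Fn1 (0.41) and Col1a1 (0.42) positive. With day 14 alone Col3a1 was -0.28, Timp1 -0.51, Acta2 -0.091 and Il1b 0.081. With the covariate Col3a1 was -0.060, Timp1 -0.39, Nlrp3 -0.19 and Acta2 -0.064, and without the 3 libraries Timp1 was -0.41, Nlrp3 -0.098 and Acta2 -0.018. Array weights gave -0.044 for Timp1, -0.041 for Nlrp3 and -0.13 for Acta2, and removing the length trend gave 0.018 for Col1a1. Leaving out 1 library gave ranges of -0.038 to 0.10 for Tnf, -0.018 to 0.30 for Timp1, -0.24 to 0.043 for Spp1, -0.013 to 0.092 for Nlrp3, -0.10 to 0.0071 for Col1a1, -0.15 to 0.00505 for Il1b and -0.051 to 0.079 for Acta2.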
